A study of Mus musculus with 30 samples.

Results

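Brown preadipocytes given Cre recombinase to delete the glucocorticoid receptor (GR, gene Nr3c1) were compared at 4 hours of adipogenic induction and at day 0, just before it. The rule took every gene with a value of at least 1 RPKM (a read count divided by transcript length and library size) in either of these 2 libraries. It kept 12176 genes of the 23109 genes or unmatched accessions in the tables. The study followed GR-deleted and control cells through brown adipogenesis by RNA sequencing at day 0, 4 hours, day 2 and day 7, with 1 library for each line and time. Its chromatin data were not used here.

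The starting cells were brown preadipocytes taken from interscapular fat pads of newborn pups (C57BL/6J strain, floxed GR gene, written GR f/f). They had been immortalised with SV40T, the viral large T antigen that inactivates p53 and the retinoblastoma proteins. Retrovirus then delivered Cre recombinase, which cuts out the floxed segment, or the empty vector. These lines are called Cre and Vec. For each line the labels name no second infection or culture, so the values below describe 2 lines. Cells were plated 4 days before induction. The induction mix held dexamethasone at 2 µg/ml, IBMX at 0.5 mM, indomethacin at 0.125 mM, insulin at 0.02 µM and the thyroid hormone T3 at 1 nM. IBMX blocks the phosphodiesterases that break down cyclic AMP, dexamethasone is a synthetic glucocorticoid and indomethacin inhibits the cyclooxygenases. Day 0 cells had not been given the mix. No 4-hour library without it was analysed here, so the mix, the change of medium and the elapsed time cannot be told apart.

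Cyclic AMP activates protein kinase A, which phosphorylates the transcription factor CREB and switches on a short wave of early genes. In preadipocytes this signal works alongside glucocorticoid and insulin, and the early factors C/EBPβ and C/EBPδ then lead to PPARγ and the adipocyte programme. GR is itself a transcription factor that dexamethasone binds directly, and the comparison asks what 4 hours of induction changes in a line with little receptor message.

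The receptor transcript was low in every Cre library. Nr3c1 stood at 4.81 RPKM at day 0 in Cre (734 reads, 95% exact Poisson interval 4.47 to 5.17) and at 24.3 in Vec. At 4 hours it stood at 4.04 in Cre (197 reads, 3.49 to 4.64) and at 12.9 in Vec. At day 2 the values were 8.07 in Cre and 21.3 in Vec, and at day 7 they were 6.67 and 32.1. The Cre libraries did not overlap the Vec libraries. Reads from exons outside the floxed segment count toward this value, so it bounds the undeleted message from above.

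Depth differed between the 2 libraries compared: 24100800 reads at day 0 and 7706699 at 4 hours in Cre. The Vec libraries of the same times held 23496745 and 12260712, and the deepest of all 8, Vec D2, held 28864140. For a transcript of the median length, 2524 nt, 3 reads corresponded to 0.0493 RPKM in Cre D0 and 0.154 RPKM in Cre 4h. The cells carried the markers of fibroblasts and preadipocytes: 15 of 16 passed the filter, and their summed level was 4964 RPKM at day 0 and 5098 at 4 hours. Col1a1, Vim and Col1a2 led them. Myf5, a marker of the embryonic brown fat lineage, had no read in either library, while En1, another such marker, stood at 13.7 and 8.64 RPKM. Macrophage markers summed to 2.64 and 2.98 RPKM, endothelial markers to 10.6 and 14.7, muscle markers to 17.6 and 11.1, epithelial markers to 0.580 and 0.925, and Schwann and neuronal markers to 22.8 and 12.3. Adgre1 and Pecam1, which define macrophages and endothelium, had no read at either time.

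With 1 library per side there was no test. A gene was counted as changed when log2(RPKM + 1) differed by at least 1 between 4 hours and day 0, a scale that understates the change of low genes. By this rule 896 genes changed (7.36% of the 12176), of which 447 rose (3.67%) and 449 fell (3.69%). The median difference over all 12176 genes was -0.03 on this log2 scale, with an SD across genes of 0.57. Large changes were mostly upward: 73 genes rose by at least 2 on the log2 scale, and 17 fell by as much. Genes that rose went from a median of 4.70 RPKM to 17.0, and genes that fell from 9.65 to 3.09. At the edge of the rule, Dr1 just passed with 14.0 and 29.0 RPKM, and Sgtb just missed it with 3.10 and 7.20. Below, Zfp41 just passed with 11.8 and 5.42 RPKM and Exd2 just missed it with 4.36 and 1.68. Iba57 (highest value 1.0002 RPKM) was just inside the filter and Ube2cbp (0.9987) just outside.

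**Figure D1:**
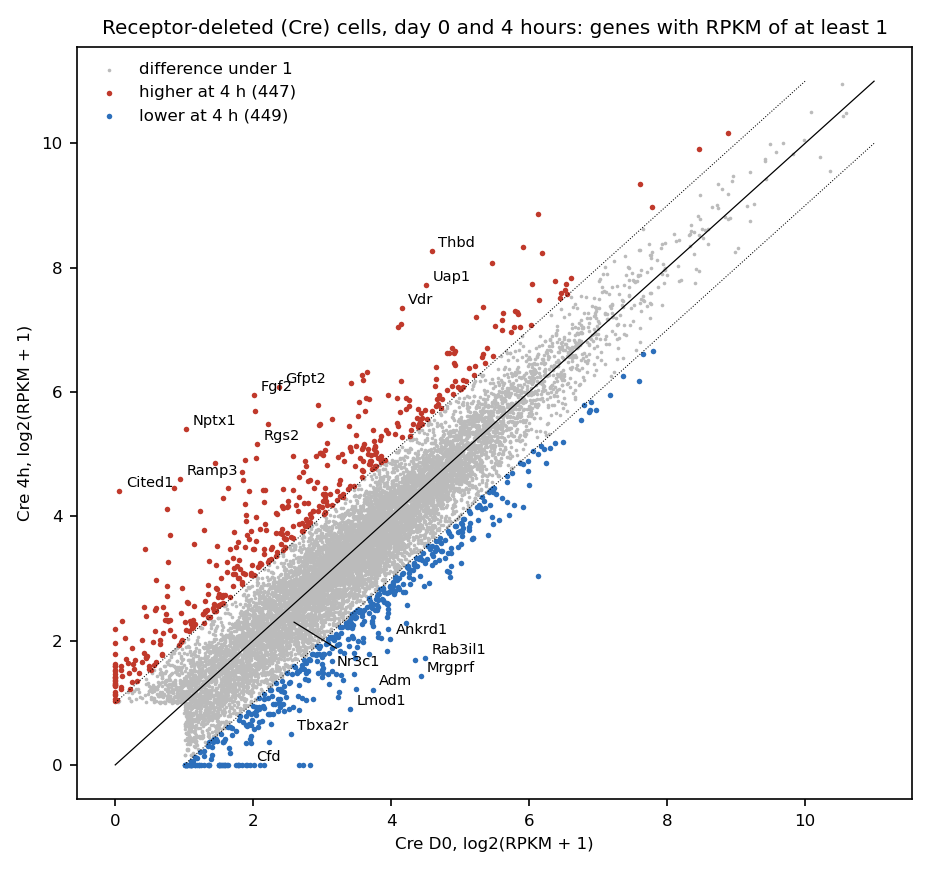
Level of each of the 12176 genes in the Cre line at day 0 (horizontal) and at 4 hours (vertical), both as log2(RPKM + 1), 1 point per gene. Dotted lines mark a difference of 1. The 447 genes above the band include Cited1, Nptx1 and Thbd, the 449 below it include Mrgprf and Lmod1, and Nr3c1 lies inside it.

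Some of these counts rest on few reads. Of the 896 changed genes, 107 had under 20 reads over both libraries, and for 101 the 95% counting interval of the ratio included 1. Genes of small RNAs (microRNAs and small nucleolar and nuclear RNAs) gave 50 rises and 61 falls among 248 past the filter. Transcript length also moved with the difference. Among other genes, those under 1000 nt had a median difference of 0.21 and 6.48% of the 911 rose, while those of at least 4000 nt had a median of -0.08 and 3.22% of the 3416 rose. The part of length in the counts was not tested. In bulk RNA, fewer cells of a type and less RNA per cell cannot be told apart.

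Among the 15 largest rises, Nptx1, a secreted pentraxin, went from 1.04 RPKM at day 0 to 41.1 at 4 hours, a ratio of 39.4 (95% interval of counting error, 33.0 to 47.4). Cited1, a transcriptional coregulator, had a single read at day 0 (0.0426 RPKM) and 152 reads at 4 hours (20.2 RPKM), so its ratio of 475 is known only to lie between 84.0 and 18897. Fgf2, a growth factor for preadipocytes and fibroblasts, rose from 3.04 to 60.9 RPKM. Thbd, the anticoagulant receptor thrombomodulin, rose from 23.1 to 308 RPKM, the highest 4-hour RPKM among the 15 largest rises. Each of these 4 genes was also raised in the Vec line. Nudt6 rose from 3.06 to 50.5 RPKM, but it overlaps Fgf2 on the opposite strand, and since no strand setting is known, reads of the 2 genes cannot be told apart. The other 10 of the 15 largest rises were Gfpt2, Ramp3, Prg4, Slc37a2, Olr1, Tll1, Uap1, Vdr, Rgs2 and Nr4a3, with log2 differences from 3.69 to 3.04.

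Genes switched on by cyclic AMP and CREB rose together in the cells with reduced GR message. The list of these genes, like the other lists, was chosen with earlier results of these data known, so its counts are descriptions only. Of the 22 list members past the filter 16 rose and none fell, with a median difference of 1.74 against -0.03 over all genes. In Vec 19 of 23 rose, with a median of 2.17. Crem, which encodes a CREB-related repressor made from an inner promoter under cyclic AMP, rose from 2.30 to 12.5 RPKM in Cre and from 2.37 to 12.1 in Vec. Its log2 differences were 2.03 and 1.95. The 3 orphan nuclear receptors of the Nr4a family rose as well. Nr4a1 went from 6.55 to 30.2 RPKM, Nr4a2 from 2.69 to 17.4 and Nr4a3 from 0.352 to 10.1. In Vec the same 3 genes reached 95.4, 11.9 and 8.18 RPKM at 4 hours, so Nr4a1 stood higher in Vec and Nr4a2 and Nr4a3 higher in Cre. Sik1, a kinase that restrains CREB coactivators, rose from 5.15 to 17.2 RPKM in Cre and from 4.76 to 37.7 in Vec. Nfil3, a basic leucine zipper repressor, rose from 10.6 to 56.4 in Cre and from 11.8 to 109 in Vec.

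The 6 list members that did not pass were Per1, Fos, Atf3, Irs2, Dusp1 and Rgcc. Fos, a component of AP-1 that is induced and lost again within a short time, stood at 2.24 RPKM at day 0 and 2.54 at 4 hours. Per1, a clock gene, stood at 5.60 and 6.96, against 5.59 and 25.2 in Vec. Dusp1, a phosphatase of MAP kinases, stood at 11.6 and 17.6, against 11.3 and 70.5 in Vec. Per1 and Dusp1 are also known glucocorticoid targets and stand in that list too.

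CREB binds the cyclic AMP response element, whose full form is TGACGTCA, and also its shorter core TGACG. Promoter windows of 300 bases (250 before to 50 after a transcript start) were searched on both strands in the RefSeq table of build GRCm38.p6, where 281 of the 447 risen genes and 302 of the 449 fallen ones were found. The full element was in 10 of 358 windows of risen genes (2.79%), in 3 of 436 windows of fallen genes (0.688%) and in 3.03% of 11855 windows of all genes past the filter. The core, which is part of the full element, was in 33.8%, 21.1% and 31.6% of these windows. For both forms the share among risen genes lay near that of the filtered genes. Among windows of cyclic AMP list members that rose, 2 of 26 held the full element and 11 of 26 (42.3%) the core. The 120 bases shown run from 110 before to 10 after the start, 5′ to 3′ on the gene's own strand, with the element or core in capitals. They are shown because 4 of the risen genes described here, Areg, Maff, Has1 and Ch25h, carry the full element, and because Nr4a1 carries cores only.
Areg, chr5:91139489-91139608, plus strand: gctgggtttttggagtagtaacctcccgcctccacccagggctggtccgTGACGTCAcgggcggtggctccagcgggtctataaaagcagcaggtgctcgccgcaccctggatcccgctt
Maff, chr15:79347410-79347529, plus strand: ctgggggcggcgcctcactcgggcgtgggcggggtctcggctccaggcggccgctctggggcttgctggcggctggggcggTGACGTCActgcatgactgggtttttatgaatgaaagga
Has1, chr17:17855179-17855298, minus strand: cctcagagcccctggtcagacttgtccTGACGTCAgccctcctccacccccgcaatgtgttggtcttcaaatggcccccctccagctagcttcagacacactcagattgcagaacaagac
Ch25h, chr19:34475139-34475258, minus strand: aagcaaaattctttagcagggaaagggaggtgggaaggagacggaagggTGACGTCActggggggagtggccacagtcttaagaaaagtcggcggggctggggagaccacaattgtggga
Nr4a1, chr15:101266736-101266855, plus strand: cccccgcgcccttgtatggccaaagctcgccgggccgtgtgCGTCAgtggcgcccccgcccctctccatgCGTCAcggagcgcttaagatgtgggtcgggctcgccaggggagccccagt

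The element begins 61 bases before the start in Areg and Ch25h, 83 in Has1 and 29 in the window shown for Maff, whose other windows lack it. In Nr4a1 the cores are read on the opposite strand, so they appear as CGTCA. Areg, the EGF receptor ligand amphiregulin, rose from 0.104 RPKM (3 reads) to 3.14 (29 reads), a ratio of 30.2 with a counting interval of 9.37 to 155. Maff, a small basic leucine zipper factor, rose from 8.76 to 31.1 RPKM. Ch25h, which makes 25-hydroxycholesterol, rose from 2.73 to 15.3 RPKM, and in Vec it stood at 2.90 and 4.77. A match of letters in a window is a description and not a bound site. The letters TATAAA, the TATA box, were in 15.1% of windows of risen genes, 7.57% of fallen genes and 6.90% of all filtered genes.

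Some of the enzymes that break down cyclic AMP were raised. Among phosphodiesterases and adenylyl cyclases 6 of 20 rose and none fell, with a list median of 0.07, so most members did not pass the rule. All 6 were phosphodiesterases. Pde4a, another enzyme of this kind, stood at 13.9 and 7.47 RPKM in Cre (a difference of -0.81). Pde4d, which degrades cyclic AMP, rose from 7.43 to 35.0 RPKM in Cre and from 7.61 to 50.6 in Vec. Pde4b rose from 12.6 to 30.9, Pde3b from 7.68 to 19.4, Pde3a from 0.740 to 3.49 and Pde10a from 2.38 to 10.4. Pde1a, a calmodulin-dependent member, rose from 2.68 to 10.4 RPKM in Cre and stood at 3.06 and 4.16 in Vec. Rgs2, which limits signalling by G proteins, rose from 3.17 to 34.6 RPKM in Cre and from 2.69 to 234 in Vec. Its day 0 values were close in the 2 lines, and its 4-hour level in Vec was far above that in Cre.

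Growth factor genes rose in 8 of 19 cases (4 with a pseudocount of 5) with none falling, and the median was 0.65. Besides Fgf2 and Areg these were Ereg, Fgf7, Fgf10, Hgf, Bdnf and Vegfa. Fgf10, a signal for preadipocyte growth and differentiation, rose from 3.52 to 20.5 RPKM in Cre and from 3.57 to 15.5 in Vec. Fgf7, the keratinocyte growth factor, rose from 34.1 to 82.3 in Cre and stood at 41.1 and 52.9 in Vec. Vegfa, the main angiogenic factor, rose from 25.7 to 58.3 in Cre and stood at 26.6 and 36.8 in Vec. In Vec 5 of 19 members rose and 1 fell. In the list of AP-1 and early growth response genes, early transcription factors for the most part, 4 of 19 rose (Fosl2, Junb, Maff and Ier3), while Jund fell from 42.9 to 20.4 RPKM. The list's median was -0.06.

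The next list held acute-phase genes and genes of signalling through gp130, the route of interleukin 6 among others. Of its 17 members past the filter 9 rose and 1 fell, with a median of 1.04. The receptor chain Il6st, which encodes gp130, went from 69.4 to 177 RPKM, and Osmr, the oncostatin M receptor, from 24.8 to 60.7. The feedback inhibitors Socs1, Socs2 and Socs3 rose to 17.0, 34.7 and 20.9 RPKM, from 6.74, 11.2 and 7.27. The kinase Jak2 rose from 12.6 to 27.01. The member that fell was Il6ra, the receptor chain specific to interleukin 6, from 7.46 to 2.87 RPKM. In Vec it stood at 6.73 and 11.9. The ligand Il6, which stands in the list of NF-kB targets and cytokines, rose from 0.725 to 11.9 RPKM in Cre (19 and 100 reads) and from 0.509 to 6.15 in Vec. In that list 5 of 17 rose and 1 fell, with a median of 0.30.

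Chemokine genes rose in 6 of 15 cases with none falling, and their median was 0.77. With a filter at 5 RPKM 3 rose, and with a pseudocount of 5 on the log scale 2 rose. Cxcl1, which attracts neutrophils, rose from 1.44 to 12.7 RPKM in Cre and from 1.57 to 14.1 in Vec. Ccl2, which attracts monocytes, rose from 31.2 to 65.4 in Cre and stood at 31.6 and 20.7 in Vec. Ccl5 rose from 12.3 to 40.8, and Ccl8, Ccl11 and Cxcl14 reached 3.05, 3.02 and 1.78 RPKM on 12 to 25 reads. Ptgs2, the inducible cyclooxygenase that indomethacin inhibits as an enzyme, rose from 4.995 to 30.3 RPKM in Cre, a ratio of 6.07 (5.44 to 6.77). In Vec it stood at 4.78 and 8.15. Its 4-hour value in Cre was the highest of the 8 libraries. Among the other prostaglandin genes 3 receptors fell: Ptger1 from 18.1 to 7.54 RPKM, Ptgir from 2.23 to 0.506 and the thromboxane receptor Tbxa2r from 4.84 to 0.406 (6 reads). All 3 fell in Vec too, and in Cre none passed the rule with a pseudocount of 5.

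**Figure D2:**
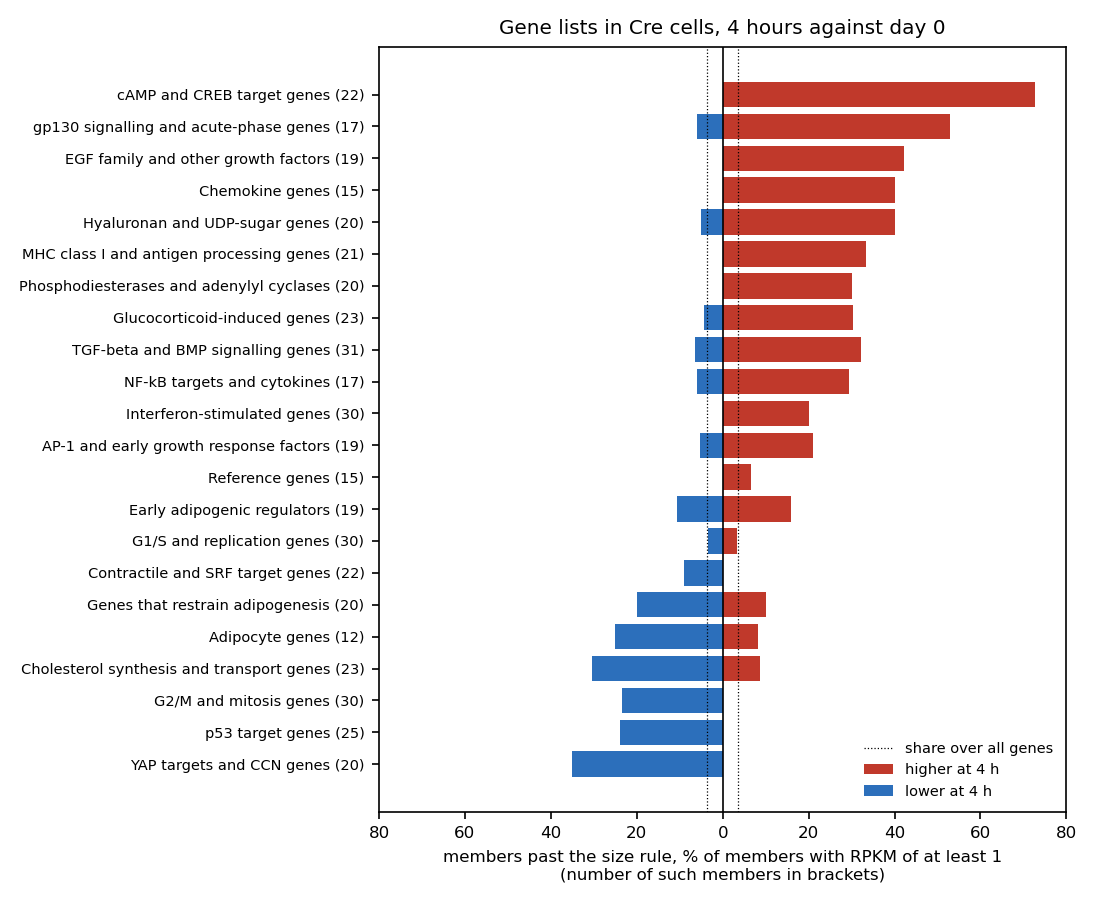
Share of the members of 22 gene lists that rose (right) or fell (left) by the size rule in the Cre line, in percent of the members with at least 1 RPKM, whose number is in brackets. Dotted lines mark the shares over all genes, 3.67% and 3.69%. Cyclic AMP targets stand at the top with 16 of 22 members raised, before gp130 signalling and acute-phase genes with 9 of 17. YAP targets and CCN genes stand at the bottom with 7 of 20 lowered. The hyaluronan and MHC lists were drawn up after values had been seen. The other lists were chosen with earlier results of these data known.

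In the TGF-beta and BMP list 10 of 31 rose and 2 fell, with a median of 0.54. The 4 Id genes, which encode inhibitors of basic helix-loop-helix factors and are known BMP targets, were among them. Id1 rose from 11.6 to 78.6 RPKM, Id2 from 16.0 to 59.1, Id3 from 59.0 to 323 and Id4 from 3.30 to 12.8. In Vec they reached 76.1, 70.1, 316 and 22.6, so the 2 lines were close for Id1 and Id3. The inhibitory Smad genes Smad6 and Smad7 rose to 14.0 and 13.6 RPKM, from 6.10 and 5.33. Inhba, which encodes activin A subunits, rose from 16.7 to 71.5 in Cre and stood at 15.4 and 26.4 in Vec. Fst, the activin antagonist follistatin, rose from 8.54 to 22.9. The members that fell were the receptor Acvrl1, from 4.33 to 1.29 RPKM, and Inhbb, from 12.2 to 3.87.

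Several enzymes that make hyaluronan, a large sugar polymer of the matrix, and its precursors rose. This list was drawn up after several members had been seen among the largest rises, so its counts, too, are a description only. Of its 20 members past the filter 8 rose and 1 fell, and the median was 0.75. The hyaluronan synthases Has1 and Has2 rose from 2.56 to 25.2 RPKM and from 6.73 to 43.3. Ugdh, which makes the precursor UDP-glucuronic acid, rose from 69.1 to 466 RPKM in Cre and from 66.2 to 1072 in Vec. Gfpt2 and Uap1, which act in the synthesis of UDP-N-acetylglucosamine, rose from 4.20 to 66.3 and from 21.7 to 209 in Cre. In Vec they reached 150 and 294. Has2 alone of these 5 stood higher in Cre at 4 hours than in Vec, where it was 7.75 at day 0 and 17.0 at 4 hours. Tnfaip6, a hyaluronan-binding protein, and Prg4, the lubricant proteoglycan, rose to 20.2 and 21.0 RPKM. Cemip, a factor in hyaluronan breakdown, fell from 6.82 to 2.75, while Cemip2 rose by 1.82 on the log2 scale.

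The early adipogenic factors divided. Of 19 list members 3 rose and 2 fell in Cre, with a median of -0.26, while in Vec 10 of 20 rose and 4 fell, with a median of 0.83. Cebpb rose from 29.3 to 85.1 RPKM in Cre and from 28.4 to 220 in Vec. Cebpd rose from 10.5 to 48.2 in Cre and from 12.5 to 144 in Vec. Both genes thus rose in each line, and both ended lower in Cre. Fosl2 rose from 41.0 to 103 in Cre and from 41.9 to 86.7 in Vec. Pparg, the master regulator of fat cells, stood at 5.09 and 10.6 RPKM in Cre, a log2 difference of 0.92 that missed the rule, and rose from 4.68 to 13.6 in Vec (1.36). Cebpa stood at 5.97 and 11.5 in Cre and at 5.50 and 9.05 in Vec, under the rule in both.

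In this list 3 Kruppel-like factors, Klf5, Klf9 and Klf15, differed between the lines, while Klf6 fell in both. Klf5 stood at 2.57 and 1.28 RPKM in Cre and rose from 2.66 to 9.88 in Vec. Klf9 stood at 9.54 and 9.98 in Cre and rose from 9.01 to 43.6 in Vec. Klf15 stood at 1.77 and 0.962 in Cre and rose from 1.60 to 5.94 in Vec. All 3 passed the rule in Vec and missed it in Cre, where no value was above 10 RPKM at 4 hours. Zfp467 fell in both lines too. Among genes that restrain adipogenesis 2 of 20 rose (Id2 and Id3) and 4 fell (Klf2, Klf3, Wnt10b and Trib3), with a median of 0.27. With a pseudocount of 5 on the log scale, 1 fell. Klf2, which represses Pparg, fell from 10.0 to 2.50 RPKM, and Wnt10b, an inhibitory Wnt ligand, from 1.53 to 0.233 on 82 and 4 reads.

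Of 24 markers of mature adipocytes, 12 stayed under 1 RPKM at both times. The highest value was 44.5 RPKM at day 0 and 45.4 at 4 hours. Of the 12 past the filter 3 fell, none of them with a pseudocount of 5, and 1 rose. Adipoq, which encodes adiponectin, had 59 reads at day 0 (1.99 RPKM) and none at 4 hours. Cfd, which encodes adipsin, had 64 reads at day 0 (2.88 RPKM) and none at 4 hours, so it was at least 6.82-fold lower against a floor of 3 reads in that library. Both genes were also at 0 reads in Vec at 4 hours. Plin4, a lipid droplet protein, fell from 7.82 to 1.85 RPKM. Angptl4, an inhibitor of lipoprotein lipase, rose from 1.96 to 18.5 RPKM. Fabp4 stood at 14.2 and 12.8 RPKM, and it reached 990 at day 2. Ucp1, the uncoupling protein of brown fat, had no read at either time in Cre. Dgat1, which makes triglyceride, rose from 11.0 to 72.4 RPKM in Cre and from 10.3 to 73.3 in Vec, and the desaturase gene Scd1 from 87.3 to 192 in Cre and from 92.6 to 646 in Vec.

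Dexamethasone was in the mix, and genes known to be induced by glucocorticoids were read in the line with reduced receptor message. Of 32 such genes 23 passed the filter in Cre, 7 rose and 1 fell, with a median of 0.55. In Vec 22 of 28 rose and none fell, with a median of 2.35. The filter used each line's own libraries, so these counts and medians cover different genes. A gene low at day 0 could enter the Vec set through its raised 4-hour value alone. Fkbp5, a chaperone partner of steroid receptors, stood at 19.5 and 26.99 RPKM in Cre (log2 difference 0.45) and rose from 20.2 to 242 in Vec. Tsc22d3, which encodes GILZ, stood at 14.4 and 18.8 in Cre (0.37) and rose from 14.0 to 153 in Vec. Sgk1, a kinase, stood at 13.2 and 14.5 in Cre and rose from 14.1 to 56.1 in Vec. For these 3 genes the 4-hour value in Cre was nearer to day 0 than to the 4-hour value in Vec.

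The 7 members that rose in Cre were Mt2, Serpina3n, Angptl4, Cebpd, Glul, Gadd45g and Crispld2. The metallothionein gene Mt2 rose from 39.3 to 163 RPKM in Cre and from 45.2 to 1768 in Vec. Its neighbour Mt1 stood at 193 and 312 RPKM in Cre, a difference of 0.69, and rose from 193 to 2316 in Vec. Serpina3n, an acute-phase protease inhibitor, rose from 0.697 to 8.65 in Cre and from 0.919 to 96.2 in Vec. It belongs to a family of near-identical genes, so its reads may be shared with relatives. Angptl4 was the list member with the larger rise in Cre, by 2.72 against 1.95 on the log2 scale. Several of the 7 are also known targets of cyclic AMP or interleukin 6, and the cause of their rise in Cre was not tested. Lpin1, which acts in triglyceride synthesis, fell from 10.3 to 4.17 RPKM in Cre and stood at 10.5 and 10.6 in Vec.

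**Figure D3:**
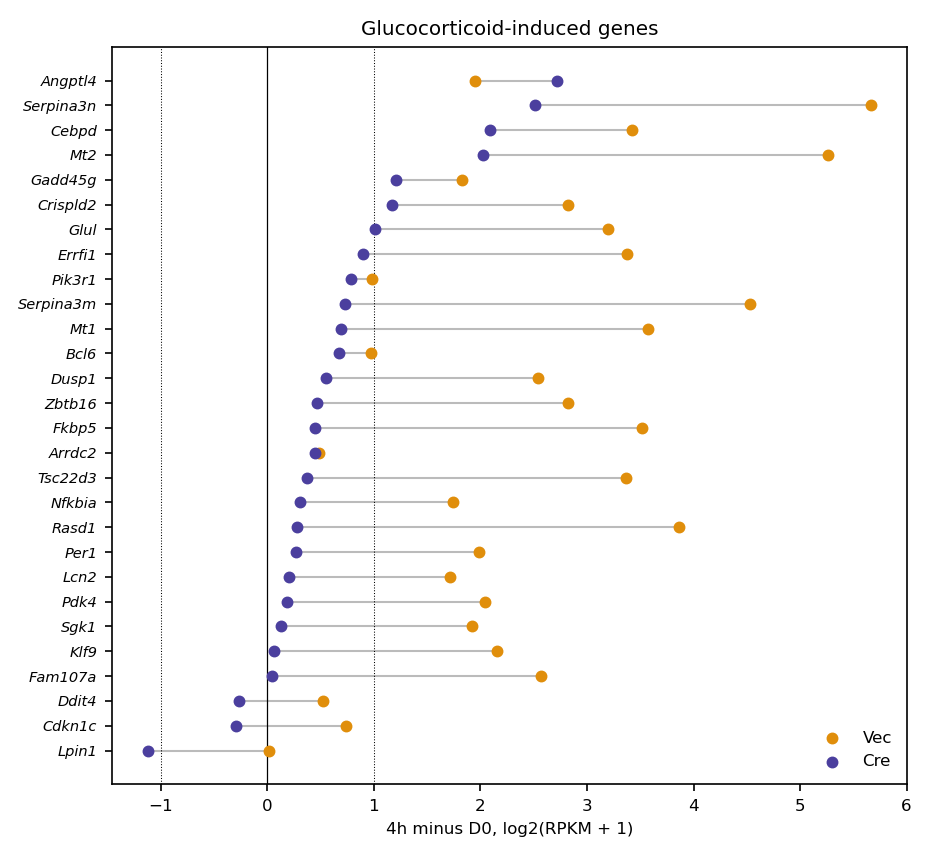
Difference in log2(RPKM + 1) between 4 hours and day 0 for the glucocorticoid-induced genes with at least 1 RPKM in a D0 or 4h library, in the Cre line (purple) and the Vec line (orange), 1 library per value. Dotted lines mark -1 and 1. Angptl4 alone has its Cre point to the right of its Vec point, and Fkbp5 and Tsc22d3 lie at 0.45 and 0.37 in Cre.

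The largest fall of a named gene was that of Mrgprf, an orphan G protein-coupled receptor, which went from 20.5 to 1.68 RPKM (26 reads), a ratio of 12.2 (8.28 to 18.8). Rab3il1, an exchange factor for Rab proteins, fell from 21.5 to 2.29 RPKM. Adm, the vasodilator adrenomedullin, fell from 12.3 to 1.32. Lmod1, the smooth muscle actin nucleator leiomodin, fell from 9.60 to 0.856. All 4 genes fell in Vec as well, by -3.49, -2.50, -1.51 and -2.91 on the log2 scale. The other 11 of the 15 largest falls, from Rab7b at -2.26 to Arhgef10l at -1.89, included the α1D-adrenergic receptor Adra1d, which fell from 8.49 to 1.25 RPKM.

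A list joined targets of the mechanosensitive coactivator YAP with genes of the CCN family. Its members fell in 7 of 20 cases (4 with a pseudocount of 5) with none rising, and their median was -0.58. Ccn2, a matrix-associated growth regulator, fell from 40.0 to 16.5 RPKM in Cre and from 39.5 to 18.0 in Vec. Ankrd1 fell from 14.8 to 3.09 and Ccn5 from 13.0 to 3.14. F3, the tissue factor gene, fell from 124 to 51.5 RPKM. Ccn1 fell from 65.5 to 32.2 RPKM in Cre and rose from 66.3 to 134 in Vec. Contractile genes had a median of -0.47, and 19 of 22 had negative values, but only Lmod1 and Cnn1 passed the rule. In Vec 9 of 22 contractile genes fell and none rose, with a median of -0.85.

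Rhob, which encodes a small GTPase induced by stress and growth factors, fell from 51.3 to 15.2 RPKM in Cre and rose from 49.9 to 138 in Vec. Cdc42ep3, an effector of the GTPase Cdc42 and among the 15 largest falls, went from 8.86 to 1.58 RPKM in Cre and from 10.2 to 1.08 in Vec. Arhgef10l fell from 11.8 to 2.45 RPKM in Cre and from 10.4 to 1.32 in Vec.

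Cell division genes were lower at 4 hours. All 30 G2 and mitosis genes had negative values, 7 fell by the rule (3 with a pseudocount of 5), and the median was -0.78. The proliferation marker Mki67 fell from 47.9 to 18.5 RPKM in Cre and from 48.4 to 16.8 in Vec, and Anln, an actin-binding protein of cytokinesis, from 37.3 to 14.3 in Cre and from 33.9 to 8.68 in Vec. Genes of G1, S phase and replication changed less: 1 of 30 rose, 1 fell and the median was -0.19. The member that fell was Ccnd1, which encodes cyclin D1, from 35.1 to 11.5 RPKM. Known p53 targets fell in 6 of 25 cases (3 with a pseudocount of 5) with none rising, and their median was -0.62. Cdkn1a, the cell cycle inhibitor p21, fell from 199.9 to 96.3 RPKM, Ccng1 from 143 to 61.2 and the apoptosis gene Bbc3 from 8.99 to 2.50. The cells carry SV40T, which binds p53.

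Cholesterol synthesis and transport genes fell in 7 of 23 cases, 2 rose, and the median was -0.72. With a pseudocount of 5 on the log scale, 4 fell. Insig1, a sterol sensor of the endoplasmic reticulum, fell from 41.5 to 11.96 RPKM in Cre and from 39.9 to 13.3 in Vec. The enzymes Mvk, Mvd, Sqle, Lss and Dhcr7 fell with log2 differences between -1.04 and -1.46. One of the 2 risers, the cholesterol exporter Abca1, went the other way, from 7.85 to 46.6 RPKM in Cre and from 7.64 to 41.4 in Vec. The other was Hsd17b7, from 12.7 to 31.9. In Vec 12 of 23 members fell and 3 rose, with a median of -1.11.

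In a list of antigen presentation genes drawn up after seeing values, 7 of 21 members rose and none fell, with a median of 0.49. The class I genes H2-K1 and H2-D1 rose from 36.4 to 147 RPKM and from 64.6 to 212, and their light chain B2m from 469.8 to 1143. In Vec they rose to 135, 189.6 and 1092. The class I genes are near-identical copies, so reads can be split among them. Of 30 interferon-stimulated genes 6 rose and none fell in Cre, with a median of 0.37. With a pseudocount of 5 on the log scale, 2 rose. In Vec 1 of 29 rose and 1 fell, with a median of 0.17. Bst2, an antiviral membrane protein, rose from 194 to 649.97 RPKM in Cre and from 173 to 583 in Vec. Its transcript and that of B2m are under 1000 nt, the length class in which the median difference was 0.21. Ifit1 rose from 96.7 to 227 in Cre and stood at 77.2 and 107 in Vec. An ISRE-type interferon response core was in 6.42% of promoter windows of risen genes, 1.61% of fallen genes and 2.94% of all filtered genes.

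Most other lists moved little as groups. Collagens and matrix genes had 1 riser of 31, the matrix glycoprotein gene Tnc. None of 12 steroid receptor and glucocorticoid-handling genes and none of 7 thyroid hormone genes passed the rule in Cre. Wnt ligands and antagonists had 1 riser and 1 faller of 16. Wnt11 rose from 0.0744 RPKM (5 reads) to 3.96 (85 reads). Insulin and FoxO genes had a single faller of 22, the insulin receptor substrate Irs1, from 20.3 to 9.20 RPKM. Unfolded protein response genes had 1 riser of 23, the chaperone Hspa5, from 218 to 501 RPKM, and 1 faller, Trib3. Reference genes had 1 riser of 15, B2m, and a median of -0.11.

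The Vec line gave a response that shares no library with the Cre response and was described the same way. In Vec 671 genes rose (5.52% of 12158) and 977 fell (8.04%), with a median difference of -0.14. TMM and median-of-ratios scaling would raise the Vec 4h library by 0.12 and 0.14 on the log2 scale. Each would also shift Vec D0 by -0.04. The counts of 671 and 977 are without such scaling. Of the Cre risers 257 also rose in Vec, which is 57.5% of the Cre risers and 38.3% of the Vec risers. Of the Cre fallers 323 also fell in Vec, 71.9% of the Cre fallers and 33.1% of the Vec fallers. The sign in Vec was the same for 91.5% of Cre risers and 92.4% of Cre fallers. Across the 12389 genes with at least 1 RPKM in either line's libraries the 2 responses had a Pearson correlation of 0.76 and a Spearman correlation of 0.78, a description across genes, which are not independent. Genes called in Vec had smaller differences in Cre: a median of 0.84 against 1.40 in Vec for the risers, and -0.86 against -1.25 for the fallers. Genes called in Cre had medians of 1.34 in Cre against 1.16 in Vec for the risers, and -1.20 against -1.30 for the fallers. Each set was picked by its values in 1 of the lines.

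**Figure D4:**
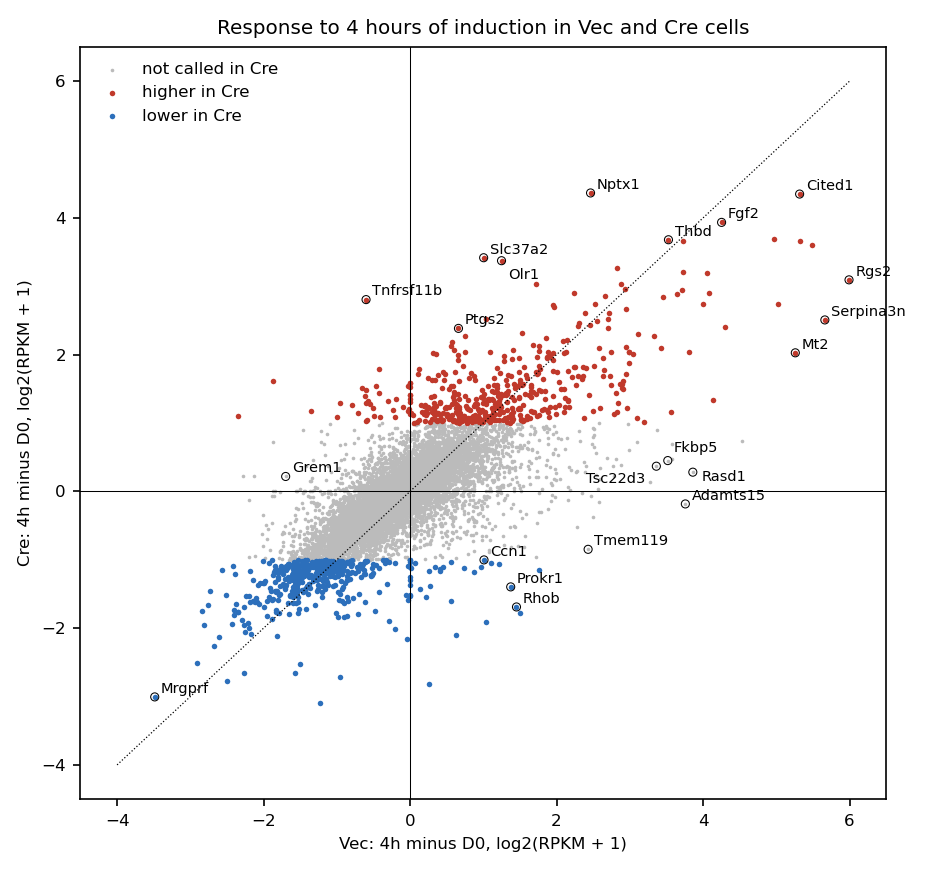
Difference in log2(RPKM + 1) between 4 hours and day 0 in Vec (horizontal) and Cre (vertical) for the 12389 genes with at least 1 RPKM in either line, with named genes circled. The dotted diagonal marks equal responses. Thbd and Fgf2 lie near it, Tnfrsf11b, Slc37a2 and Olr1 above it, and Fkbp5, Adamts15, Rhob and Rasd1 below it.

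The response in Cre less that in Vec was at least 1 on the log2 scale for 224 genes (1.81% of 12389). It was at most -1 for 326 (2.63%). This difference is signed and does not rank the responses by size. The 224 include genes that fell in Vec and changed little in Cre, such as Grem1. The 326 include genes that fell in Cre, such as Rhob. With median-of-ratios scaling these counts were 173 and 405. Tnfrsf11b, which encodes the decoy receptor osteoprotegerin, rose from 2.12 to 20.8 RPKM in Cre and stood at 2.49 and 1.30 in Vec, a difference between the responses of 3.41. Slc37a2, a sugar phosphate transporter, rose from 1.72 to 28.1 in Cre and from 1.69 to 4.39 in Vec. Olr1, the receptor for oxidised low-density lipoprotein, rose from 0.674 to 16.4 in Cre and from 0.835 to 3.36 in Vec. These 3 genes were near equal in the lines at day 0 and apart at 4 hours. Nptx1, Esm1, Ptgs2, S1pr1, Prickle2 and Eps8 followed, with differences between the responses from 1.90 to 1.65. Rpph1, the short RNA of ribonuclease P, also ranked here with 1.86, on 18 and 20 reads in Cre.

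Genes that rose in Vec and fell short most in Cre were led by Adamts15, a matrix protease, which stood at 0.707 and 0.503 RPKM in Cre and rose from 0.675 to 21.7 in Vec. Serpina3m followed, at 0.0250 and 0.704 in Cre and 0.0513 and 23.3 in Vec. Rasd1, a dexamethasone-induced Ras protein, stood at 0.155 and 0.404 in Cre (6 and 5 reads) and rose from 0.159 to 15.8 in Vec. These genes were under 1 RPKM at both times in Cre. Tmem119, a membrane protein known from bone cells and microglia, stood at 40.7 and 22.2 in Cre and rose from 42.6 to 234 in Vec. The other 6 of the 10 were Mt2, Serpina3n, Rhob, Dpep1, Arl4d and Fkbp5, with differences between the responses from -3.23 to -3.07.

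In the other direction, genes that fell in Vec and not in Cre included the BMP antagonist Grem1, which stood at 81.0 and 94.4 RPKM in Cre and fell from 90.6 to 27.2 in Vec. The homeobox genes Hoxc6, Hoxc5 and Hoxb3 stood at 39.9 and 57.9, 6.63 and 7.51, and 11.4 and 11.2 RPKM in Cre. In Vec they fell from 45.7 to 19.9, from 7.70 to 2.36 and from 11.4 to 3.49. Chst1, Crabp2, Socs5, Adam19, H2ac10 and Lbh completed the 10, with differences from 1.81 to 1.43, and Lbh fell in Cre too.

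The levels at the later times differed from gene to gene. Crem was near its day 0 level again, with 2.92 RPKM at day 2 and 2.31 at day 7 in Cre. Fgf2 stood at 5.21 and 6.70, above its day 0 value of 3.04 and far below its 4-hour value of 60.9. Il6 stood at 0.104 and 1.64, and Ptgs2 at 2.97 and 2.94. Id1 remained above its day 0 value, with 36.3 and 33.9 RPKM. Among the genes that fell, Mrgprf was at 5.90 and 11.9, and Lmod1 at 1.08 at day 2 and 10.9 at day 7, near its day 0 value of 9.60. Insig1 stood at 86.4 at day 2 in Cre and 22.1 in Vec, and at 52.1 and 60.2 at day 7. Ccnd1 stood at 1.97 at day 2 and 15.8 at day 7. Cfd, without a read at 4 hours, reached 966 RPKM at day 7 in Cre and 2092 in Vec.

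**Figure D5:**
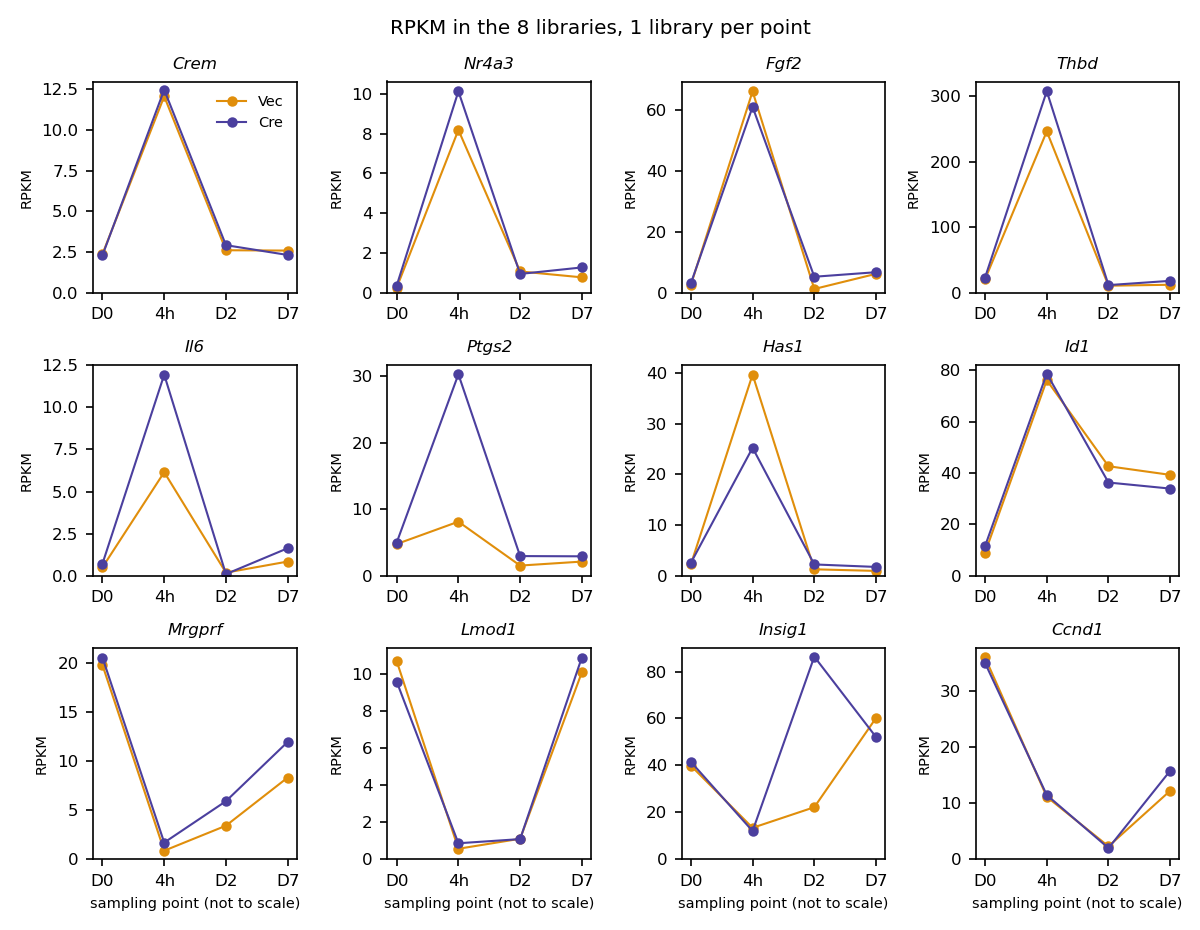
RPKM of 12 genes at day 0, 4 hours, day 2 and day 7 in the Vec line (orange) and the Cre line (purple), 1 library per point, with sampling points evenly spaced and not to scale. Crem, Nr4a3, Fgf2, Thbd, Il6, Ptgs2, Has1 and Id1 have their highest Cre value at 4 hours, and in Cre Ptgs2 reaches 30.3 RPKM against 8.15 in Vec.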

How the data were processed

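For all 8 RNA libraries the deposited table lists, per the file headers, reads counted on each RefSeq accession and their RPKM. The submitters' processing notes name CASAVA 1.8.2, SICER and the mouse build mm9. Aligner, counter and strand setting were not given in the sources used here. Counts were deposited by the authors without normalization, and the authors scaled RPKM by transcript length and library size. The ratio of count to RPKM gave each library's total.

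Accessions were matched to symbols with the RefSeq gene table (28436 of 29082), and 1 accession per gene was kept, that with most reads over the 8 libraries. Differences are log2(RPKM + 1), 4 hours minus day 0. A change is a difference of at least 1 among genes with at least 1 RPKM in either library. Ratios of single genes have 95% conditional binomial (Clopper-Pearson) intervals, which cover counting error only. Analyses used Python 3.11.15, pandas 2.3.3, scipy 1.17.1 and, for TMM scaling, edgeR 4.0.16, and were tested on simulated data.

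Members and the 45 gene lists were chosen with earlier results of these data known, and 3 lists were added after values had been seen. Named genes are Nr3c1, the 15 largest changes each way with a known symbol that is no small RNA, list members, those under the rule given by value, the 10 largest differences between the lines' responses each way, and genes that moved in opposite directions. Ch25h, members of the 3 added lists and the genes at the edges of the thresholds lie outside this rule and were picked after values had been seen. Of the genes written in the lists, 8 had no match and were not analysed here, and a few list members are not reported here. Alternatives tried were the pseudocount, the filter, 2 scalings, the accession kept, depth, read minimums and transcript length.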

Additional observations from a re-analysis of the deposited data

Results flagged for a closer look

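In all, 11 genes passed the size rule in opposite directions in the Cre and Vec lines (3 up in Cre and down in Vec, 8 the reverse). With 1 library per line and time the difference was not tested. Of these 11 genes, 3 code for proteins. Rhob fell in Cre by -1.69 and rose in Vec by 1.45, a difference of -3.14 on the log2 scale, on 2753 and 261 reads in Cre and 2612 and 3779 in Vec. For Prokr1, a prokineticin receptor, the difference was -2.77 on 316 and 19 reads in Cre and 252 and 420 in Vec. For Ccn1 it was -2.01, just past the rule in each line (1.01 in Vec).

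The other 8 are small RNA genes with at most 15 reads in any of the 4 libraries. The differences were -2.92 for Mir24-1, -2.28 for Mir5132, 2.53 for Mir877, -2.15 for Snora52, 3.46 for Snora61, -3.28 for Snord53, 3.49 for Snord71 and -2.95 for Snord72. At such counts no direction was detectable.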

How the results depend on the processing

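The counts of 447 risers and 449 fallers depended most on the pseudocount. With 0.5 they were 551 and 661, and with 5 they were 201 and 97, so 67.4% of the changed genes were then risers against 49.9%. With a pseudocount of 5 list members that rose numbered 60 instead of 94 and those that fell 21 instead of 62. Genes whose Cre response less Vec response was at least 1 or at most -1 numbered 45 and 154 instead of 224 and 326. A filter at 5 RPKM left 345 risers, 306 fallers and 138 genes with a Cre response less Vec response of at least 1. TMM scaling gave 477 and 417, day 0 thinned to the 4-hour depth 508 and 507 (415 and 402 shared with the main counts), a minimum of 20 reads 396 and 393, and leaving out genes whose counting interval included 1 gave 406 and 389. Leaving out transcripts under 200 nt, chosen after seeing the data, gave 397 and 387. Filters of 0.5 and 0 RPKM change nothing by construction for Cre. No named gene counted as changed turned its direction under these settings, while the near-zero values of Hoxb3 (-0.03) and Crabp2 (-0.01), which were not counted, turned slightly positive with either scaling. Of the 30 largest changes only Tbxa2r and Cfd were lost, with a pseudocount of 5 or a filter at 5 RPKM. No paired analysis was possible because each line and time has 1 library. Depth limits the low genes: 3 reads of a transcript of median length are 0.154 RPKM in Cre 4h, with 7706699 reads.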

Other observations

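Further gene groups of the Cre line moved in part at 4 hours, and they are given as values with no explanation. In the list of matrix proteases and inhibitors 3 of 17 members rose and 1 fell, with a median of 0.06. Adamts9, a protease that cuts proteoglycans, rose from 3.11 to 29.7 RPKM, while Adamts5, a main aggrecan-cutting protease, fell from 59.3 to 16.8. In Vec Adamts9 reached 58.9 and Adamts5 fell to 16.5. The inhibitor gene Timp1 rose from 56.4 to 152 RPKM in Cre and stood at 56.6 and 86.4 in Vec.

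Heat shock genes also divided: of 14 members 2 rose and 2 fell (0 fell with a pseudocount of 5). Hsph1 and Bag3, a chaperone and a cochaperone, rose from 26.9 to 98.3 RPKM and from 28.4 to 103. The near-identical genes Hspa1a and Hspa1b fell to 0.556 and 2.77 RPKM, from 2.91 and 9.48. Among hypoxia and angiogenic genes 3 of 22 rose and 2 fell, but 16 had negative values and the median was -0.40. Hk2, which encodes a hexokinase, rose from 5.74 to 28.5 RPKM. Among clock genes 1 of 18 rose and 2 fell (0 fell with a pseudocount of 5), with a median of -0.17. Dbp, a clock output factor, fell from 10.3 to 2.71. Of 13 nuclear and other non-coding RNAs 4 rose (1 with a pseudocount of 5), and Neat1, the scaffold of nuclear paraspeckles, went from 82.0 to 220.4 RPKM.

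In a retinoid list drawn up after values had been seen, 3 of 13 rose and 2 fell. Rdh10, which oxidises retinol, rose from 2.69 to 29.1 RPKM in Cre and from 2.56 to 10.7 in Vec. The retinoic acid receptor gene Rarg fell from 28.2 to 8.23 in Cre and from 29.1 to 3.44 in Vec, and Rara fell from 16.0 to 6.83 in Cre and stood at 16.0 and 7.83 in Vec.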
